A study of Mus musculus with 10 samples.

Results

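The imprinted domain that runs from *Dlk1* to *Dio3* on mouse chromosome 12 was followed through the in vitro differentiation of primordial germ cell-like cells (PGCLC). Its members were chosen by name from the locus: the protein-coding genes *Dlk1*, *Rtl1* and *Dio3* and the noncoding transcripts *Meg3*, *Rian* and *Mirg*. All 6 members were among the 32285 genes of the table from R1 cells, and 5 of them were among the 27998 identifiers of the table from E14Tg2a cells, where the identifier of *Rian* was absent. The counts are unique molecular identifiers (UMIs), each standing for 1 captured RNA molecule read at its 3′ end, so levels are compared between libraries for the same gene and not between genes. Maternal and paternal transcripts were not separated.

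The study profiled single cells while mouse embryonic stem cells (ESC) passed through epiblast-like cells (EpiLC) into embryoid bodies (EB) that hold PGCLC. The 8 E14Tg2a libraries were wild type. They comprised ESC in serum-free medium with LIF and inhibitors of MEK and GSK3β (2i ESC), ESC in serum and LIF (S+L ESC), EpiLC after 1, 2 or 3 days in Activin A, bFGF and KSR (d1, d2 and d3 EpiLC), epiblast stem cells kept in Activin A and bFGF (EpiSC), and unsorted EB formed from d2 EpiLC with BMP4, SCF, LIF and EGF and taken at day 2 or day 4 (d2 EB, d4 EB). The 2 R1 libraries were d4 EB from the wild-type line (WT) and from a line derived from it in which both MLL3 and MLL4 carry mutations that remove their H3K4 methyltransferase activity (Mll3/4 dCD, here dCD). The mutations are in the protein, so the transcript level of the targeted genes checks nothing: *Kmt2c* (MLL3) was at 47.5 UMIs per 1000000 UMIs (CPM) in WT and 53.8 in dCD, and *Kmt2d* (MLL4) at 29.4 and 29.1.

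Each condition had 1 library, and the dCD genotype was 1 line. No test between conditions could therefore be made, and no p-value is given. The 95% intervals printed in parentheses are exact intervals for counting error only (Poisson for CPM, Clopper-Pearson for shares of cells, conditional for ratios of CPM). They do not cover the spread between cultures, and a condition and its library cannot be told apart. The intervals of CPM and of their ratios treat UMIs as independent, so they also leave out the spread between cells and are narrower than it would allow.

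Libraries held 227 (2i ESC) to 537 cells (d2 EB) with median depths of 21658 (d4 EB) to 36750 UMIs (d1 EpiLC) in the E14Tg2a table, and 1416 WT and 1699 dCD cells with medians of 13187.5 and 11751 UMIs in the R1 table. Pairs of libraries shared 0 to 2 cell barcodes. Defining markers were where the labels place them. *Zfp42* was at 464.1 CPM in 2i ESC, 669.0 in S+L ESC and 1.25 in EpiSC. The post-implantation marker *Fgf5* was at 72.6 CPM in d2 EpiLC and 147.0 in EpiSC, and the mesoderm factor *Hand1* was at 770.3 CPM in d2 EB, 217.9 in E14Tg2a d4 EB, 625.6 in WT and 165.2 in dCD d4 EB. This mesoderm marker was thus lower in dCD than in WT EB, which stands beside each comparison between them.

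In an imprinted domain the copies inherited from the mother and from the father are not used alike. In this domain *Dlk1*, *Rtl1* and *Dio3* are made from the paternal copy, whereas *Meg3*, *Rian* and *Mirg* and many small RNAs are made from the maternal copy, in the same orientation and largely as one stretch of transcription that begins at *Meg3*. A methylation imprint between *Dlk1* and *Meg3* sets this pattern in the germline and is erased and reset in germ cells. The domain is known for its roles in fetal growth, the placenta and muscle, and loss of the maternal transcripts in some cultured pluripotent lines has long been known. DLK1 is a transmembrane protein related to the Notch ligands, RTL1 is a protein derived from a retrotransposon that placental vessels need, and DIO3 is the deiodinase that inactivates thyroid hormone. *Meg3* is a long noncoding RNA, *Rian* hosts C/D box small nucleolar RNAs (snoRNAs) and *Mirg* hosts microRNAs (miRNAs).

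On GRCm38, *Dlk1* (ENSMUSG00000040856) lies at chr12:109452823-109463336 on the plus strand, *Meg3* (ENSMUSG00000021268) at chr12:109541001-109571726 (+), *Rtl1* (ENSMUSG00000085925) at chr12:109589193-109600330 on the minus strand, *Rian* at chr12:109603940-109661716 (+), *Mirg* at chr12:109729764-109749460 (+) and *Dio3* at chr12:110279068-110281097 (+). From the start of *Dlk1* to the end of *Dio3* the GENCODE annotation places 118 genes in 828.3 kb, of which 67 are miRNA genes and 23 snoRNA genes. None of these small RNA genes was a row of either table, so the UMI counts say nothing of the miRNAs themselves. They are nevertheless what much of the maternal transcript carries. RefSeq lists 114 mature miRNAs from 61 hairpins between *Dlk1* and *Dio3*, 106 of the mature sequences on the plus strand. 13 lie within the span of *Rtl1*, 26 in *Mirg*, 6 in *Rian*, 3 in *Meg3* and 66 between these genes. Of the 13, miR-3071-3p and miR-3071-5p are on the minus strand like *Rtl1*, and the rest lie opposite it. The 114 sequences have 104 distinct seeds (bases 2 to 8, in capitals in each sequence here), and 9 seeds were shared by 2 or more names. The following were chosen because they show how the maternal strand opposes the paternal protein gene *Rtl1* and how hairpins of the domain share seeds. miR-127-3p and miR-136-5p lie on the plus strand opposite *Rtl1*, and the other 8 form pairs with the same seed.
miR-127-3p: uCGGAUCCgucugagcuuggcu
miR-136-5p: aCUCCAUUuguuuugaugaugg
miR-379-3p: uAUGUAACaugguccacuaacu
miR-411-3p: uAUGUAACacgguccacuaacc
miR-370-5p: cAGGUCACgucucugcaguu
miR-1193-3p: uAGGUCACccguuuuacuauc
miR-376c-5p: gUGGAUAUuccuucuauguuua
miR-376b-5p: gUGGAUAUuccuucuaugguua
miR-494-5p: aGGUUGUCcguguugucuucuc
miR-410-5p: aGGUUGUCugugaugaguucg

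Because *Meg3*, *Rian* and *Mirg* were detected in the same cells (results on single cells are given further on), the sequences around the annotated starts of the first 2 are shown. Capitals in the *Meg3* sequence mark 3 motifs found by an exact search of both strands: TGCCGC, the core of the motif of the imprint-binding protein ZFP57 (here on the opposite strand), TGACGTCA, the cAMP response element, and TATAAA, the core of many RNA polymerase II promoters, whose matches on both strands overlap. The *Meg3* stretch, chr12:109540746-109541045 (+, RefSeq, GRCm38.p6), is the one around 1 of 2 listed starts, and it holds 13 CpG pairs in 300 bases.
Meg3: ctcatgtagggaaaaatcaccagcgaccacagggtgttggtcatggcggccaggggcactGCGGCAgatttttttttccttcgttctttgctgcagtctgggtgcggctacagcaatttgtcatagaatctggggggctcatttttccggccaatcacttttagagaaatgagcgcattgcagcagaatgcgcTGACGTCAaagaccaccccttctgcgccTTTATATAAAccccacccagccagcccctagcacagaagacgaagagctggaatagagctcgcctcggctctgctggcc
Rian: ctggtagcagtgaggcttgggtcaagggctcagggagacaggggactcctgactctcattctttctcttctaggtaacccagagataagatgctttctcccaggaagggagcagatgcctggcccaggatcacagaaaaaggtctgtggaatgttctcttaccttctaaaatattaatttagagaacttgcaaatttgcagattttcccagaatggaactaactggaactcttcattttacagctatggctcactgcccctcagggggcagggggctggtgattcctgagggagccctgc
The *Rian* stretch, chr12:109603695-109603994 (+), holds 0 CpG pairs and none of the 3 motifs. Of 32851 mouse promoters of this length, 11.6% hold TGCCGC, 13.6% TATAAA and 1.79% TGACGTCA, and the median holds 7 CpG pairs. The stretches around the RefSeq starts of *Mirg*, *Dlk1* and *Dio3* hold 10, 9 and 25 CpG pairs, and that of *Dio3* holds 1 TATAAA. The *Mirg* stretch, chr12:109734731-109735030, lies inside the span of *Mirg* given above and not at its start. A match is a description of the sequence and not a site of binding.

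*Dlk1* was nearly silent in pluripotent cells and high in EB. No *Dlk1* UMI was found in the 227 cells of 2i ESC, which allows a level of up to 0.343 CPM, and 22 UMIs were found in S+L ESC (2.18 CPM, 1.37 to 3.30). It was at 0.546 CPM (0.200 to 1.19) in d1 EpiLC, 5.29 (4.03 to 6.82) in d2 EpiLC, 0.994 (0.544 to 1.67) in d3 EpiLC and 1.33 (0.776 to 2.13) in EpiSC. Among the stages before EB, d2 EpiLC therefore stood above each other library by more than counting error, and 19.4% of its cells held a UMI, against 1.79% in d1 EpiLC and 3.51% in d3 EpiLC. In d2 EB the level was 175.2 CPM (168.5 to 182.1), with a UMI in 70.0% of cells, and in d4 EB 671.4 CPM (655.1 to 688.0), with a UMI in 89.1%. A cell of d4 EB had a median of 9 *Dlk1* UMIs and at most 276. In the R1 table WT d4 EB were at 78.2 CPM (74.4 to 82.1), with a UMI in 29.7% of cells, and dCD d4 EB at 7.73 CPM (6.64 to 8.96), with a UMI in 5.53%.

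The ratios of these levels followed from the same counts. *Dlk1* was 9.69 times as high in d2 as in d1 EpiLC (4.20 to 27.5), and in d3 EpiLC and EpiSC it was at 0.188 (0.0969 to 0.341) and 0.252 times (0.138 to 0.438) its d2 EpiLC level. It was 33.1 times as high in d2 EB as in d2 EpiLC (25.6 to 43.7) and 3.83 times as high in d4 EB as in d2 EB (3.66 to 4.01). S+L ESC were 6.36-fold higher than 2i ESC when measured against the level of 3 UMIs in 2i ESC, which leaves out the counting error of S+L ESC. In dCD d4 EB *Dlk1* was at 0.0989 times the WT level (0.0842 to 0.116), that is 10.1-fold lower.

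*Rtl1* and *Dio3* were rare in every library, and both were highest in E14Tg2a d4 EB. *Rtl1* gave 50 UMIs in d4 EB (5.21 CPM, 3.86 to 6.86), in 17 cells, and 6 UMIs in d2 EB (0.410 CPM, 0.150 to 0.892). It had 2 UMIs in d2 EpiLC, 1 in EpiSC and 0 in the other 4 E14Tg2a libraries. WT d4 EB held 24 UMIs (1.17 CPM, 0.747 to 1.74) and dCD d4 EB 9 (0.393 CPM, 0.180 to 0.747), a ratio of 0.337 (0.138 to 0.752). Maternal transcription runs opposite *Rtl1*, and whether the counting used the strand is not given in the sources used here, so its few UMIs are uncertain.

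*Dio3* gave 116 UMIs in d4 EB (12.1 CPM, 9.98 to 14.5), in 38 cells. In d3 EpiLC it gave 30 UMIs (2.13 CPM, 1.44 to 3.04), in 23 cells, which was 7.92 times the d2 EpiLC level (2.46 to 40.6). The remaining E14Tg2a libraries held 3 to 10 UMIs each, 0.269 to 0.792 CPM, and in d1 EpiLC 6 of the 7 UMIs sat in 1 cell. From d2 EB to d4 EB *Rtl1* was 12.7 times (5.45 to 36.3) and *Dio3* 17.7 times as high (9.28 to 37.9). In d4 EB, however, 41 *Rtl1* UMIs lay in 27 cells of a single cluster and 9 in the other cells. Single cells held 45, 10 and 9 of the 116 *Dio3* UMIs. The intervals of these ratios leave out this concentration in few cells. WT d4 EB held 7 *Dio3* UMIs and dCD d4 EB 0. Measured against the level of 3 UMIs in dCD this is 2.59-fold lower, a value that leaves out the counting error of WT.

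*Meg3* was abundant in every library and did not follow *Dlk1* before the EB stage. In ESC its level was 318.8 CPM (307.1 to 330.9) under 2i and 239.4 (230.0 to 249.2) under S+L, the lowest of the 8 E14Tg2a libraries. It was at 484.6 CPM (471.7 to 497.8) in d1 EpiLC, 900.3 (882.8 to 918.1) in d2 EpiLC, 835.8 (820.8 to 851.0) in d3 EpiLC and 496.4 (484.2 to 508.7) in EpiSC. It was at 553.0 CPM (541.0 to 565.2) in d2 EB and 1463 (1439 to 1487) in d4 EB, the highest level. In the order of the levels only EpiSC and d1 EpiLC were neighbours that did not differ beyond counting error (ratio 1.02, 0.987 to 1.06).

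The course of *Meg3* was thus a higher level at each step up to d2 EpiLC, a lower level in d3 EpiLC and d2 EB, and a higher level in d4 EB. It was also lower in EpiSC than in d2 EpiLC, but EpiSC were made by passaging 2i ESC in their own medium and not from d2 EpiLC. Relative to the library before it, *Meg3* was at 1.52 times in d1 EpiLC (1.45 to 1.59), 1.86 times in d2 EpiLC (1.80 to 1.92) and 0.614 times in d2 EB (0.596 to 0.633), and then at 2.65 times in d4 EB (2.57 to 2.72). In dCD d4 EB *Meg3* was at 565.5 CPM (555.8 to 575.4) against 1206 (1192 to 1222) in WT, a ratio of 0.469 (0.459 to 0.479) or 2.13-fold lower.

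*Mirg*, the downstream miRNA host, was at far lower counts and moved with *Meg3* in most steps. It was at 18.5 CPM (15.8 to 21.6) in 2i ESC, 8.12 (6.46 to 10.1) in S+L ESC, 31.3 (28.1 to 34.8) in d1 EpiLC and 32.4 (29.1 to 35.9) in d2 EpiLC. In d3 EpiLC, EpiSC and d2 EB it was at 21.6 (19.2 to 24.2), 20.6 (18.2 to 23.3) and 20.5 CPM (18.3 to 23.0), and along with 2i ESC these were neighbours in the order that did not differ beyond counting error. It was again highest in d4 EB at 43.5 CPM (39.5 to 47.9), 2.12 times the d2 EB level (1.82 to 2.46). S+L ESC stood lowest, at 0.439 times 2i ESC (0.332 to 0.576), whereas *Meg3* was at 0.751 times. From d1 to d2 EpiLC *Mirg* was at 1.03 times (0.890 to 1.20) while *Meg3* was at 1.86 times. Hence there were 6.45 *Mirg* UMIs per 100 *Meg3* UMIs in d1 EpiLC and 3.59 in d2 EpiLC, with 2.58 in d3 EpiLC the lowest and 5.80 in 2i ESC the second highest value of the E14Tg2a libraries.

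*Rian*, which lies between *Meg3* and *Mirg*, was measured in the R1 table alone. It was at 310.3 CPM (302.7 to 318.0) in WT and 175.2 CPM (169.8 to 180.7) in dCD d4 EB, a ratio of 0.565 (0.543 to 0.587). *Mirg* was at 32.3 CPM (29.9 to 34.8) in WT and 24.9 (22.9 to 27.1) in dCD, a ratio of 0.773 (0.690 to 0.866). The 3 maternal transcripts were thus all lower in dCD but by unequal amounts, *Meg3* most and *Mirg* least. Per 100 *Meg3* UMIs, *Rian* had 25.7 UMIs in WT (25.0 to 26.4) and 31.0 in dCD (29.9 to 32.1), and *Mirg* 2.67 (2.47 to 2.89) and 4.41 (4.05 to 4.80).

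**Figure D1:**
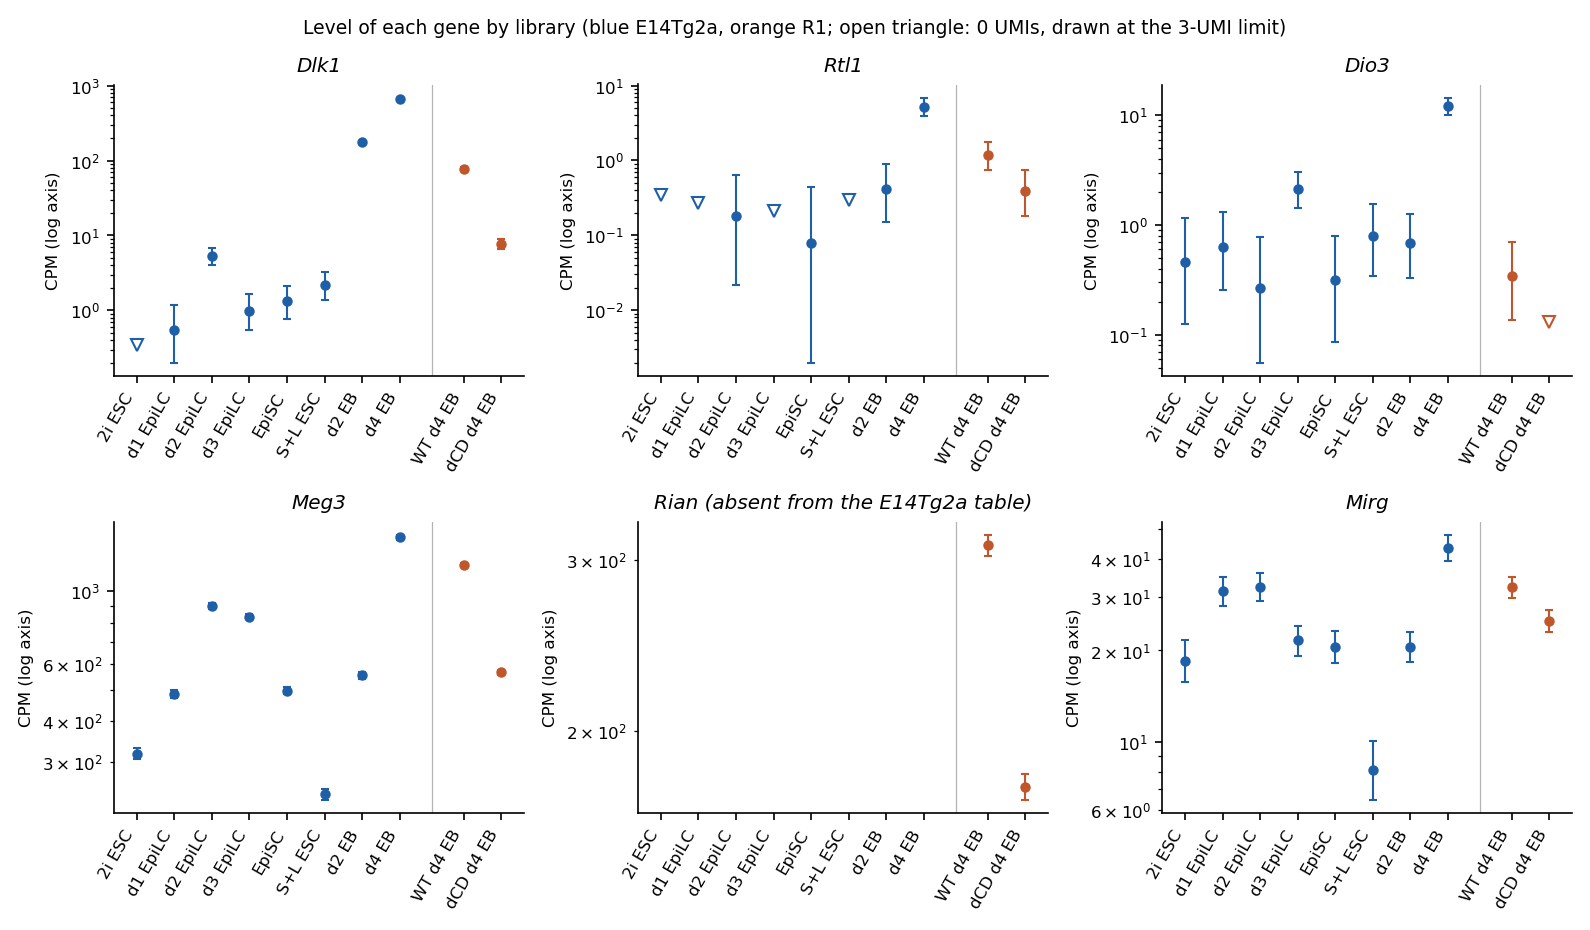
CPM of each of the 6 genes on a log axis in the 8 E14Tg2a libraries (blue) and the 2 R1 libraries (orange), with exact 95% Poisson intervals that cover counting error only. Open triangles are libraries with 0 UMIs, drawn at the level of 3 UMIs. *Dlk1* is at 5.29 CPM in d2 EpiLC and 671.4 in d4 EB, while *Meg3* stays between 239.4 and 1463 CPM throughout, and all members are lower in dCD than in WT.

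Read against the rest of the transcriptome, d4 EB and dCD were the comparisons in which 5 members had enough UMIs, and in each all 5 lay on the same side. A gene was called when it was at least 2-fold apart on the scale of CPM + 1 with at least 10 UMIs over both libraries. All 5 measured members were called higher in d4 EB than in d2 EB, where 9.73% of all genes were called higher, and their median log2 ratio was 1.93 against 0.11 over all genes. None was called lower, where 3.54% of genes were. The call of *Mirg* was at the threshold (log2 ratio 1.05) and fell under it at 0.93 with median-of-ratios size factors in place of library totals. In dCD against WT 2 of the 5 members with enough UMIs were called lower (*Dlk1*, log2 ratio -3.18, and *Meg3*, -1.09), where 3.68% of all genes were called lower. The other 3 were also below WT on this scale (*Rian* -0.82, *Rtl1* -0.64, *Mirg* -0.36), and the median of the 5 was -0.82 against 0.03 over all genes. None was called higher in dCD, where 6.31% of genes were.

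The other steps moved single members. In S+L against 2i ESC *Dlk1* was called higher (9.73% of all genes) and *Mirg* lower (2.41%). From 2i ESC to d1 EpiLC none of 3 members was called, with 12.1% of genes higher and 6.54% lower. From d1 to d2 EpiLC *Dlk1* alone was called, higher (9.91% of genes, with 6.28% lower), from d2 to d3 EpiLC *Dio3* was called higher (3.44%) and *Dlk1* lower (3.1%), in EpiSC against d2 EpiLC *Dlk1* was called lower (6.13%, with 8.47% higher), and in d2 EB against d2 EpiLC *Dlk1* was called higher (13.1%, with 9.79% lower).

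The genes just outside the domain were looked at in the same way. Of the 15 genes listed from just outside it, 14 had enough UMIs in d4 EB against d2 EB, and none was called in either direction, where 9.73 and 3.54% of all genes were called higher and lower (median log2 ratio 0.38). They include *Yy1*, a zinc finger factor, at 56.2 CPM in d2 EB and 79.3 in d4 EB, and *Dync1h1*, a dynein heavy chain, at 38.4 and 56.0 CPM. In dCD against WT all 15 had enough UMIs and 1 was called: the kinase gene *Mok*, higher at 10.0 against 3.16 CPM, where 6.31% of all genes were called higher (median of the list 0.06). In the other comparisons 0 to 2 of these genes were called: *Begain* higher in S+L ESC, *Mok* and *Zfp839* lower in d1 EpiLC, *Mok* lower in d2 EpiLC, none in d3 EpiLC or EpiSC, and *Evl* higher and *Hsp90aa1* lower in d2 EB. Nothing particular to these genes is read from counts this small. Inside the domain, 22 further transcripts that are no small RNA genes are annotated, 3 of them rows of the E14Tg2a table and 9 of the R1 table. Only *B830012L14Rik*, a noncoding transcript between *Rian* and *Mirg*, had enough UMIs in a comparison. It was at 7.78 CPM in d2 EB and 19.3 in d4 EB, a ratio of 2.48 (1.95 to 3.15), and at 43.1 CPM in WT and 27.4 in dCD, a ratio of 0.636 (0.573 to 0.705).

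The genes listed as keeping or setting methylation imprints include some with large differences. *Dnmt3a* and *Dnmt3b*, the de novo DNA methyltransferases, were at 4.45 and 34.9 CPM in 2i ESC and at 174.0 and 412.9 CPM in d1 EpiLC. *Dnmt3b* was at 798.4 CPM in d2 EpiLC and 46.2 in d2 EB. *Zfp57*, which binds methylated imprints, was at 46.7 CPM in d1 and 9.95 in d2 EpiLC. Of the 18 genes of the list, those called higher and lower numbered 3 and 0 in S+L ESC, 4 and 1 in d1 EpiLC, 1 (*Aff3*) and 4 in d2 EpiLC, 0 and 4 in d3 EpiLC, 0 and 4 in EpiSC, 2 and 5 in d2 EB, 1 (*Tet2*) and 1 (*Dnmt3b*) in d4 EB, and 0 and 0 in dCD. Over all genes the shares called at these steps were those given with the members, from 3.44 and 3.1% in d3 EpiLC to 13.1 and 9.79% in d2 EB, and nothing particular to the list is read from its counts. In dCD the log2 ratios of this list ran from -0.61 to 0.995 around a median of 0.27. *Tet1* and *Tet2*, which oxidise methylated cytosine, were at 87.3 and 22.5 CPM in WT and 170.4 and 45.8 CPM in dCD, just short of a call.

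Genes of thyroid hormone metabolism listed beside *Dio3* gave few calls. *Slc16a10*, an amino acid transporter that also carries thyroid hormone, was called higher in S+L ESC (0 CPM in 2i ESC, 1.49 in S+L ESC) and in d2 EpiLC (0.182 CPM in d1 and 2.96 in d2 EpiLC). The receptor gene *Thrb* was called higher in d2 EB, at 1.30 CPM after 0 in d2 EpiLC. The other receptor gene, *Thra*, was called in no comparison and was at 8.55 CPM in d1 EpiLC and 33.2 CPM in d4 EB, its lowest and highest levels in the E14Tg2a table. The deiodinase genes *Dio1* and *Dio2* had 0 UMIs in at least 7 of the 8 E14Tg2a libraries.

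Detection in single cells depends on depth, so each cell was also thinned to 15374 UMIs in the E14Tg2a table (223 to 519 cells per library left) and to 6831 UMIs in the R1 table (1366 WT and 1529 dCD cells). *Meg3* was then detected in 94.2% of 2i ESC, 82.9% of S+L ESC, 94.0% of d1, 97.5% of d2 and 98.2% of d3 EpiLC, 84.2% of EpiSC, 92.1% of d2 EB and 84.0% of d4 EB cells. Without thinning the corresponding shares were 97.8, 87.1, 95.0, 97.9, 98.7, 86.3, 93.7 and 87.5%. The library with the highest level, d4 EB, was thus among those in which *Meg3* was most often missing. In the same cells 44.7% of d4 EB held 20 or more *Meg3* UMIs, against 21.6% of d2 EpiLC, 0.448% of 2i ESC and 0% of S+L ESC (which allows up to 1.02%). The variance of the thinned *Meg3* count over its mean was 25.2 in d4 EB and 2.82 in 2i ESC.

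In the R1 table the thinned share with *Meg3* was 88.4% in WT and 64.3% in dCD (91.5 and 72.1% unthinned). The share with *Rian* was 71.8 and 45.9% (82.3 and 55.2% unthinned), with *Mirg* 19.4 and 13.0% (31.4 and 20.8%), and with *Dlk1* 22.7 and 3.34% (29.7 and 5.53%). The median *Meg3* count of a cell was 12.5 UMIs in WT and 3 in dCD, although single dCD cells reached 257 UMIs and single WT cells 159. For *Dlk1* the thinned shares in the E14Tg2a table were 0% in 2i ESC (which allows up to 1.35%), 0.375, 8.48 and 1.54% in d1, d2 and d3 EpiLC, 1.11% in EpiSC, 3.41% in S+L ESC, 63.4% in d2 EB and 84.9% in d4 EB.

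**Figure D2:**
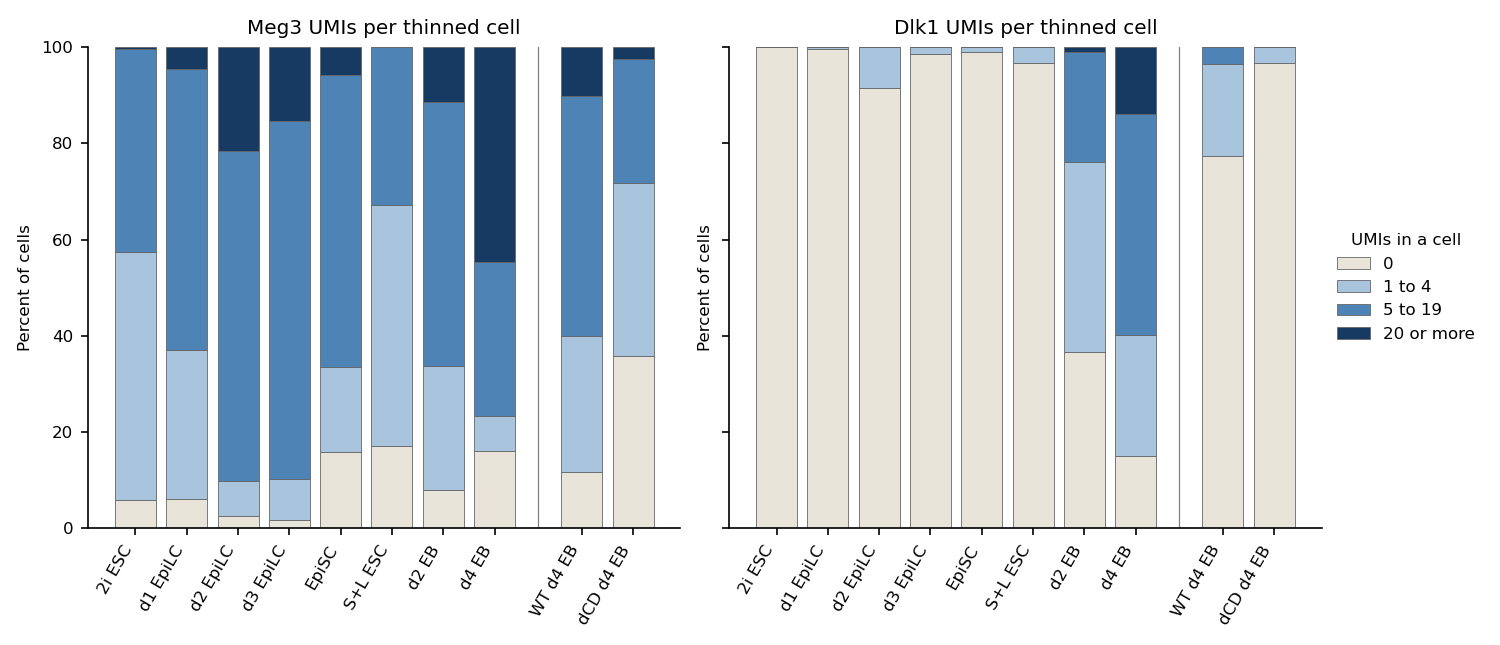
Percent of cells (y axis) with 0, 1 to 4, 5 to 19 and 20 or more UMIs of *Meg3* (left) and *Dlk1* (right) after thinning, for each library. In d4 EB 44.7% of cells hold 20 or more *Meg3* UMIs although *Meg3* is missing from more cells than in d2 EpiLC, and *Dlk1* reaches 20 or more UMIs in 13.9% of d4 EB cells.

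Cells without *Meg3* were looked at among those at or above their library's median UMI count, where the median cell held 10 (S+L ESC) to 42 *Meg3* UMIs (d2 EpiLC) in 9 libraries but 4 in dCD, so that a count of 0 is easier to reach by sampling in dCD. No such cell was found among 114 in 2i ESC (at most 2.63% at this number of cells), and 1 or 2 in each EpiLC library (2 of 140 in d1, 1 of 145 in d2, 1 of 200 in d3). They numbered 5 of 155 in S+L ESC (3.23%), 19 of 187 in EpiSC (10.2%, 6.23 to 15.4), 24 of 269 in d2 EB (8.92%), 27 of 184 in d4 EB (14.7%), 74 of 708 in WT (10.5%) and 182 of 850 in dCD d4 EB (21.4%). Outside EpiLC, where such cells were 1 or 2 a library, their median depth had no common direction. It was below that of cells with *Meg3* in S+L ESC (31152 against 41500 UMIs), EpiSC (36442 against 40910.5) and dCD (15601.5 against 16128). It was above in d2 EB (33655.5 against 31463 UMIs), d4 EB (30712 against 28303) and WT (17405 against 16638.5).

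The other maternal transcripts were detected less often in the cells without *Meg3*. In EB these cells were uneven over the cell classes, as given further on, and the part of the cell class was not tested. In WT *Rian* was detected in 13.5% of the cells without *Meg3* and in 88.3% of those with it, and in dCD in 11.5 and 76.9%. *Mirg* was detected in 5.26 against 56.0% in EpiSC, 0 (of 24 cells, which allows up to 12.5%) against 43.3% in d2 EB, 3.70 against 51.6% in d4 EB, 5.41 against 36.4% in WT and 3.85 against 32.9% in dCD. *B830012L14Rik* was found in 0 of 19 such cells of EpiSC and 0 of 27 of d4 EB, which allows shares of up to 15.8 and 11.1%, against 26.8 and 36.9% of cells with *Meg3*. In each of the 5 libraries the order was the same for every maternal transcript measured, although for *B830012L14Rik* in d2 EB (8.33 against 15.5%) the intervals overlapped. The paternally expressed *Dlk1* differed less in proportion: it was detected in 33.3 against 70.2% of cells in d2 EB, 66.7 against 89.8% in d4 EB, 17.6 against 32.8% in WT and 3.85 against 7.19% in dCD, where the intervals overlapped. In EpiSC, where *Dlk1* was rare, the order was the other way, with 3 of 19 cells (15.8%) against 5.95%, and the intervals overlapped.

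**Figure D3:**
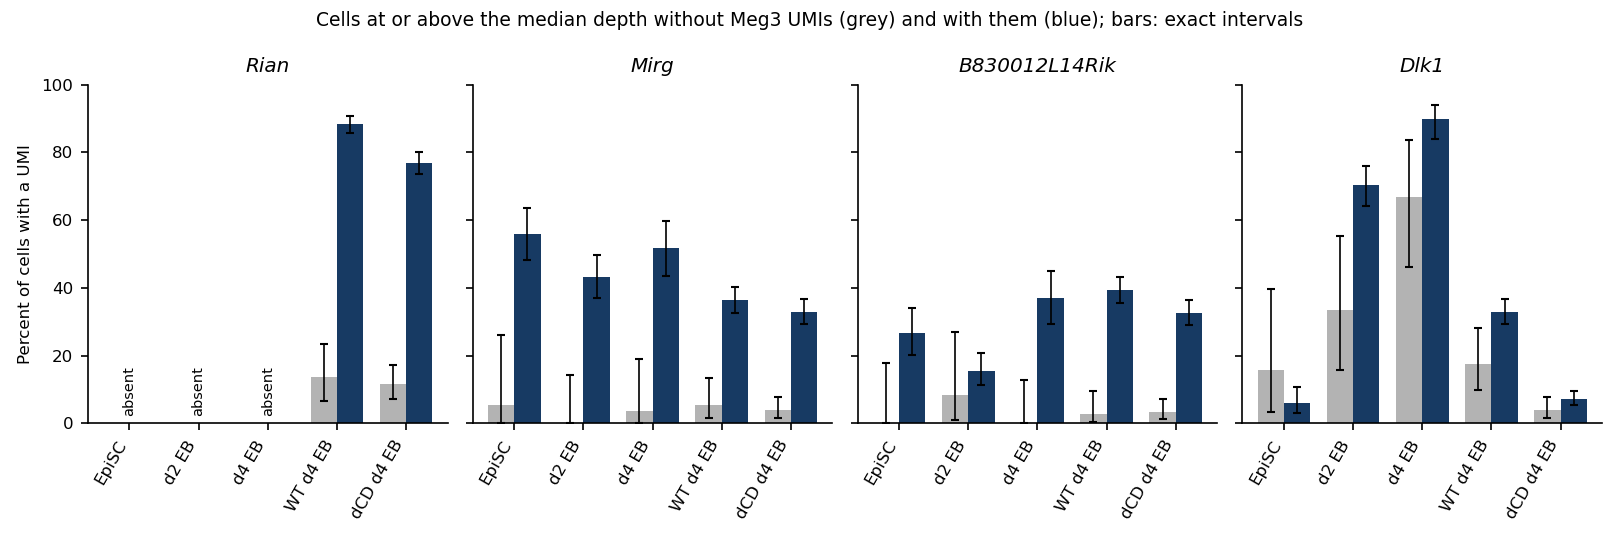
Percent of cells with a UMI of *Rian*, *Mirg*, *B830012L14Rik* or *Dlk1* (y axis) among cells at or above their library's median depth, without *Meg3* UMIs (grey) and with them (blue), in 5 libraries, with exact 95% intervals. In WT *Rian* is found in 13.5% of cells without *Meg3* and 88.3% of cells with it, whereas *Dlk1* in d4 EB is found in 66.7 and 89.8%.

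In EpiSC, which were cultured as 1 population and not as EB, the 19 cells without *Meg3* differed from the others in further genes, which are given as a description. Among the 18 listed imprint keepers and setters, *Dnmt3b* was at 167.9 CPM in them and 407.6 in cells with *Meg3*. *Aff3*, a factor that binds this domain's imprint, had 1 UMI (1.40 CPM) against 86 (11.4 CPM). These were picked for their large differences, and others of the list were alike. *Trim28* was at 330.3 against 334.5 CPM, *Dnmt1* at 50.4 against 50.9 and *Suz12* at 44.8 against 45.4. *Ezh2* was higher without *Meg3*, at 172.1 against 140.2 CPM. A change of the list as a whole is not read from these values. Summed formative epiblast markers were at 237.9 against 425.2 CPM, endoderm markers at 4.20 against 64.6, naive markers at 49.0 against 49.9 and primitive streak markers at 309.3 against 351.5 CPM. The part of another cell state in the absence of *Meg3* was not tested.

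Over the thinned cells of a library, log counts of *Meg3* and *Rian* had a Pearson correlation of 0.707 in WT (1366 cells) and 0.684 in dCD (1529 cells). *Meg3* and *Mirg* had correlations between 0.182 (d3 EpiLC) and 0.456 (d4 EB) over the 10 libraries. *Dlk1* and *Meg3*, which come from opposite parental copies, had a correlation of 0.634 in d4 EB (331 cells) and 0.381 in d2 EB (519 cells), but 0.0935 in WT and 0.0521 in dCD d4 EB, which is too weak to read in counts this sparse. These are descriptions over cells that share a library and a depth. By this measure the genes most like *Meg3* over the cells of d4 EB, of 8349 ranked, were *Mdk* (0.675), *Gnas* (0.672), *Mest* (0.643), *Hmga2* and *Dlk1*, of which *Gnas* and *Mest* belong to other imprinted loci. In WT they were *Rian*, *Peg3* (0.428), *Mest*, *B830012L14Rik* and *Gnas*, of 7035 ranked, and in dCD *Rian*, *B830012L14Rik* (0.401), *Mirg*, *Mdk* and *Mest*. For *Dlk1* the list was *Mest* (0.687), *Meg3*, *Igfbp4*, *Ramp2* and *Vim* in d4 EB and *Tgfbi* (0.284), *Bambi*, *Igfbp4*, *Tpm1* and *Hmga2* in WT, and in dCD no gene exceeded 0.119.

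Over the 8 E14Tg2a libraries, with log2(CPM + 1) as the measure, *Meg3* was most like *Zfand5* (Pearson 0.969), *Prss8*, *1700017B05Rik*, *Clpx* and *Tubgcp2* (0.948), while *B830012L14Rik* ranked 19 (0.918) and *Mirg* 159 (0.846) of 12271 genes. *Dlk1* was most like *Dync1li2* (0.988), *Tnni2*, *0610040B10Rik*, *Abl1* and *Lsp1* (0.979), and *Meg3* ranked 3453 (0.599) in its list. With 8 libraries of 8 conditions many genes reach such values.

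Within E14Tg2a EB the level of the locus depended on the cell class. PGCLC were taken from the authors' own list of barcodes (91 of 537 cells in d2 EB and 44 of 368 in d4 EB), and the EB were also clustered without the 6 members. Cluster 1 of d2 EB (387 cells) was extraembryonic mesoderm-like and cluster 3 (55 cells) extraembryonic ectoderm-like, while cluster 2 (95 cells) held 85 of the listed PGCLC. In d4 EB cluster 1 (255 cells) was left unnamed and had *Ptn*, *Pitx1* and *Col3a1* among its leading genes, cluster 2 (47 cells) held all 44 listed PGCLC, cluster 3 (39 cells) was extraembryonic ectoderm-like and cluster 4 (27 cells) endothelium-like. Erythroid markers scored highest in that cluster 1 (median 43.3-fold), with the globin genes *Hba-a1*, *Hba-x* and *Hbb-y* leading. However, 3 cells held most globin UMIs of the library. Extraembryonic mesoderm markers came next (median 14.8-fold, with 5 of 7 at least 2-fold higher). The classes are cut from the cells they describe, so their differences were not tested.

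*Meg3* was lower in PGCLC than in the cells around them at both days, and from day 2 to day 4 it was lower still in PGCLC and higher in the other cells. In the listed PGCLC it was at 290.8 CPM (272 to 311) in d2 EB and 74.9 (59.3 to 93.4) in d4 EB, a ratio of 0.258 (0.202 to 0.325), and the share of PGCLC with a UMI was 92.3% and then 50.0%. In the remaining cells it was at 618.6 CPM in d2 EB and 1634 in d4 EB, a ratio of 2.64 (2.57 to 2.72). *Meg3* in listed PGCLC was thus at 0.470 times the remaining cells in d2 EB (0.437 to 0.505) and at 0.0458 times in d4 EB (0.0363 to 0.0572). Against d2 EpiLC, from which they arise, d2 PGCLC were at 0.323 times (0.301 to 0.346).

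*Mirg* had the same directions between the days. In d2 EB its ratio of listed PGCLC to the remaining cells, 0.777 (0.560 to 1.06), included no difference, and in d4 EB it was 0.0586 (0.0120 to 0.172). The PGCLC of d2 EB had 16.7 CPM and those of d4 EB 2.84 CPM, from 3 UMIs, a ratio of 0.170 (0.0339 to 0.528), and at 21.5 and 48.5 CPM in the remaining cells, a ratio of 2.26 (1.93 to 2.65). *Dlk1* was low in PGCLC at both days, at 25.9 and 30.3 CPM (ratio 1.17, 0.750 to 1.79), and was at 212.6 and 750.5 CPM in the remaining cells (ratio 3.53, 3.37 to 3.70). Against d2 EpiLC *Dlk1* in d2 PGCLC was at 4.90 times (3.44 to 7.01).

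Low levels in PGCLC of a dissociated EB can include RNA released by other cells. In d4 PGCLC *Dlk1* was at 4.52%, *Meg3* at 5.12% and *Mirg* at 6.54% of its level in the whole library. By the same measure the globin genes *Hbb-y*, *Hba-a1* and *Hba-x* were at 1.45, 1.78 and 2.91%, the collagen gene *Col3a1* at 2.30% and the endothelial gene *Emcn* at 3.73%, the last 2 from 2 and 1 UMIs. The extraembryonic ectoderm genes *Rhox6* and *Rhox9* were at 8.41 and 11.3%. The members lay above the former and below the latter, and the part of free RNA in these UMIs was not tested.

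Among the other classes the endothelium-like cluster 4 of d4 EB stood out. Its 27 cells were at 4112 CPM of *Meg3*, 2218 of *Dlk1*, 136.5 of *Mirg* and 34.1 of *Rtl1*, and held 35.2% of all *Meg3* and 41.3% of all *Dlk1* UMIs of the library. Against the other cells of d4 EB that was 3.79 times for *Meg3* (3.66 to 3.93), 4.93 times for *Dlk1* (4.69 to 5.18), 4.52 times for *Mirg* (3.69 to 5.52) and 31.9 times for *Rtl1* (15.3 to 74.5), of whose 50 UMIs 41 lay in this cluster. *Dio3* had 0 UMIs there against 116 in the other cells, a ratio of 0 (0 to 0.226). Without this cluster, an alternative chosen after seeing the data, the log2 ratios of d4 EB over d2 EB were 1.36 for *Dlk1* (1.93 with it), 0.97 for *Meg3* (1.40), 0.54 for *Mirg* (1.05) and 0.56 for *Rtl1* (2.14), so that 3 of the 5 members were then under 2-fold.

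The largest class, cluster 1 of d4 EB, was at 1473 CPM of *Meg3*, 644.6 of *Dlk1* and 40.0 of *Mirg*, against 710.8, 253.2 and 24.6 CPM in the mesoderm-like cluster 1 of d2 EB. The extraembryonic ectoderm-like cells were lower, with 211.5 CPM of *Meg3*, 33.7 of *Dlk1* and 8.42 of *Mirg* in d2 EB and 541.2, 134 and 18.7 CPM in d4 EB. Of the 116 *Dio3* UMIs in d4 EB 52 came from cluster 1 and 64 from cluster 3, whereas *Rtl1* had 8 UMIs in cluster 1 and 0 in cluster 3. In cluster 3 those 64 UMIs came from 3 cells with 45, 10 and 9 UMIs, which held 0, 0 and 1 *Meg3* UMIs.

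Cells without *Meg3* were likewise uneven over the classes, again among cells at or above the median depth. In d4 EB 0 of 95 cells of cluster 1 lacked *Meg3*, which allows up to 3.16%, whereas 11 of 26 listed PGCLC (42.3%), 13 of 37 extraembryonic ectoderm-like cells (35.1%) and 3 of 23 endothelium-like cells (13.0%) did. In d2 EB they made up 1.89% of cluster 1, 10.5% of cluster 2 and 28.3% of cluster 3.

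**Figure D4:**
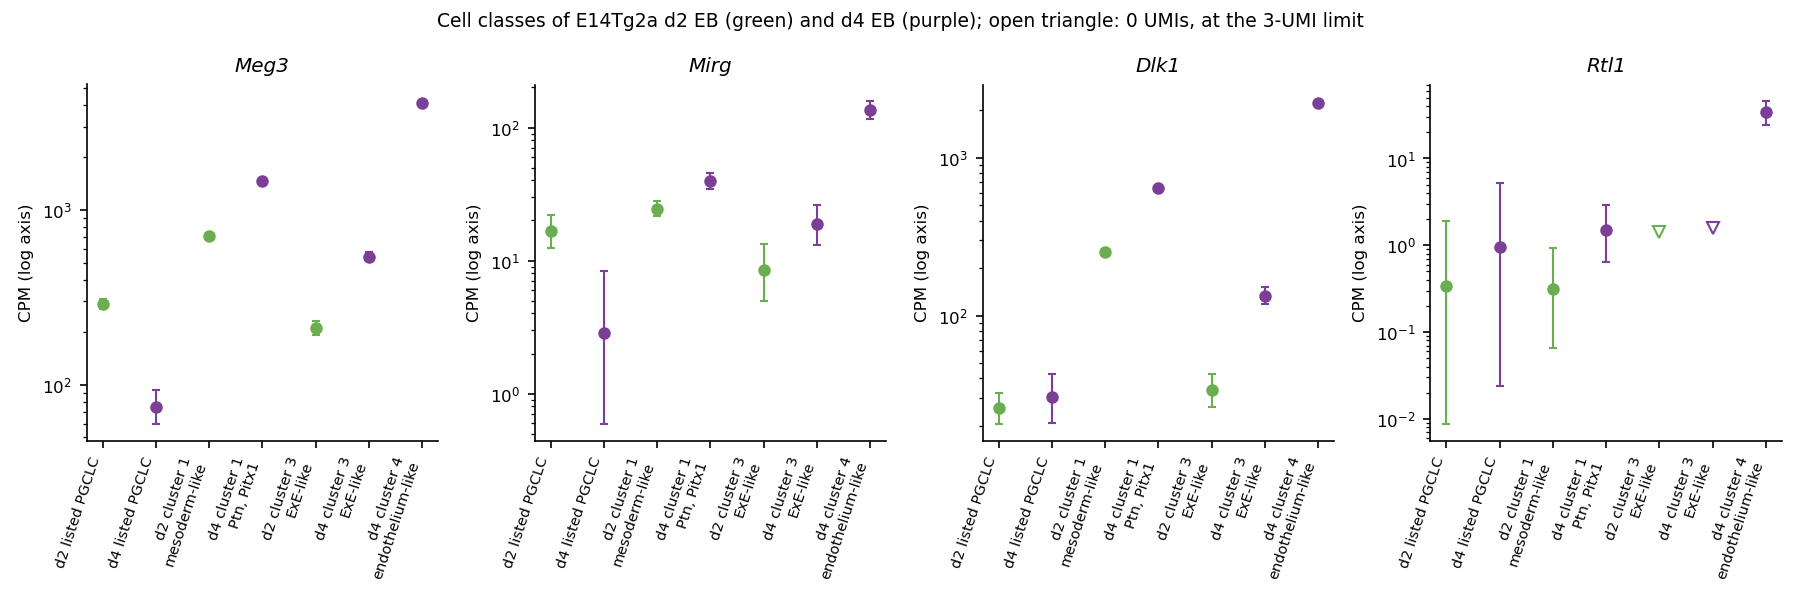
CPM on a log axis of *Meg3*, *Mirg*, *Dlk1* and *Rtl1* in listed PGCLC and in clusters of E14Tg2a d2 EB (green) and d4 EB (purple), with exact 95% Poisson intervals. Open triangles mark 0 UMIs at the level of 3 UMIs. *Meg3* is at 290.8 CPM in d2 and 74.9 CPM in d4 PGCLC but at 4112 CPM in the 27 endothelium-like cells of d4 EB.

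The WT and dCD EB were compared within 6 of 9 joint clusters that had at least 20 cells of each library. Named by number and leading genes, they were cluster 1 (*Lefty1*, *Fgf8*; 162 WT and 538 dCD cells), cluster 2 (*Nkx2-5*; 62 and 524), cluster 3 (naive pluripotency-like; 129 and 443), cluster 4 (*Tbx4*, *Pitx1*; 541 and 23), cluster 5 (*Smoc2*, *Col6a3*; 331 and 43) and cluster 6 (*Vgll3*, *Krt7*; 147 and 85). In cluster 1 the globin genes *Hba-x*, *Hbb-y* and *Hbb-bh1* ranked above *Lefty1*, but 2 cells held 942 of the 952 globin UMIs of WT. The lower *Dlk1* of dCD was found within most of them. *Dlk1* was at 80.3 CPM in WT and 11.0 in dCD in cluster 2 (ratio 0.137, 0.0946 to 0.197), 65.1 and 14.2 in cluster 4 (0.218, 0.0590 to 0.561), 186.7 and 10.5 in cluster 5 (0.0565, 0.0207 to 0.123) and 58.3 and 17.5 in cluster 6 (0.300, 0.202 to 0.434). In clusters 1 and 3, where WT cells had 5.96 and 2.36 CPM, the ratios of 1.17 (0.635 to 2.31) and 0.433 (0.118 to 1.73) included no difference.

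*Meg3* had no common direction in these clusters. It was lower in dCD in cluster 2 (1536 CPM in WT, 613.2 in dCD; ratio 0.399, 0.373 to 0.427), cluster 3 (456.0 and 258.3; 0.567, 0.524 to 0.613), cluster 4 (1656 and 1218; 0.736, 0.659 to 0.819) and cluster 5 (1426 and 630.6; 0.442, 0.396 to 0.492). It was higher in dCD in cluster 1 (490.6 and 663.6 CPM; 1.35, 1.27 to 1.44) and cluster 6 (642.0 and 987.1 CPM; 1.54, 1.44 to 1.64). *Rian* followed *Meg3*, with ratios of 1.64 in cluster 1, 0.390 in cluster 2, 0.716 in cluster 3, 0.449 in cluster 5 and 1.71 in cluster 6, and 0.960 (0.785 to 1.16) in cluster 4. *Mirg* had ratios of 1.89, 0.350, 0.473 and 2.78 in clusters 1, 2, 5 and 6, and values of 0.773 (0.540 to 1.12) and 1.15 (0.623 to 1.96) in clusters 3 and 4.

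The direction in cluster 1 depended on how cells were grouped. With graph clusters in place of k-means clusters, the one that held most of cluster 1 had 20 WT and 597 dCD cells. Another with 114 WT and 6 dCD cells took most of the rest, so that WT and dCD cells of cluster 1 were largely apart. The latter was PGC-like, with 6 of 7 PGC markers at least 2-fold higher and *Prdm1* and *Dnd1* among its leading genes. Of its 120 cells 103 lay in cluster 1. The cluster 1 ratios thus set many PGC-like WT cells against dCD cells mostly of another kind. They are not a difference within a cell class, and the part of this makeup in them was not tested. In the graph cluster with 20 WT and 597 dCD cells the ratios were 0.884 for *Meg3* (0.790 to 0.991) and 0.837 for *Rian* (0.692 to 1.02). They were 0.803 for *Mirg* (0.497 to 1.38) and 0.272 for *Dlk1* (0.146 to 0.543). In the graph cluster that matched cluster 6 (152 WT and 131 dCD cells) the ratios were 1.57 for *Meg3* (1.48 to 1.67), 1.72 for *Rian* (1.53 to 1.93), 2.96 for *Mirg* (1.97 to 4.56) and 0.222 for *Dlk1* (0.147 to 0.325). In that group of cells the maternal transcripts were thus higher and *Dlk1* lower in dCD under both groupings. For cluster 3 the matched graph cluster gave 0.759 for *Meg3* (0.699 to 0.825), 0.979 for *Rian* (0.845 to 1.14) and 1.17 for *Mirg* (0.790 to 1.78). Its *Dlk1* ratio of 3.00 (0.385 to 135), from 7 dCD and 1 WT UMIs, included no difference. The graph cluster that matched cluster 5 had 592 WT and 111 dCD cells, of which 51.2% lay in cluster 5. It gave 0.515 for *Meg3* (0.484 to 0.548), 0.571 for *Rian* (0.507 to 0.640) and 0.133 for *Dlk1* (0.0873 to 0.195). For *Mirg* it gave 0.792 (0.566 to 1.08), which included no difference. The graph cluster that matched cluster 2 had 3 WT and 440 dCD cells. That of cluster 4 had 335 WT and 0 dCD cells. The ratios of clusters 2 and 4 thus have no counterpart under the other grouping. The part of the cell makeup in the whole-library differences cannot be told apart from that of the genotype with 1 library each.

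**Figure D5:**
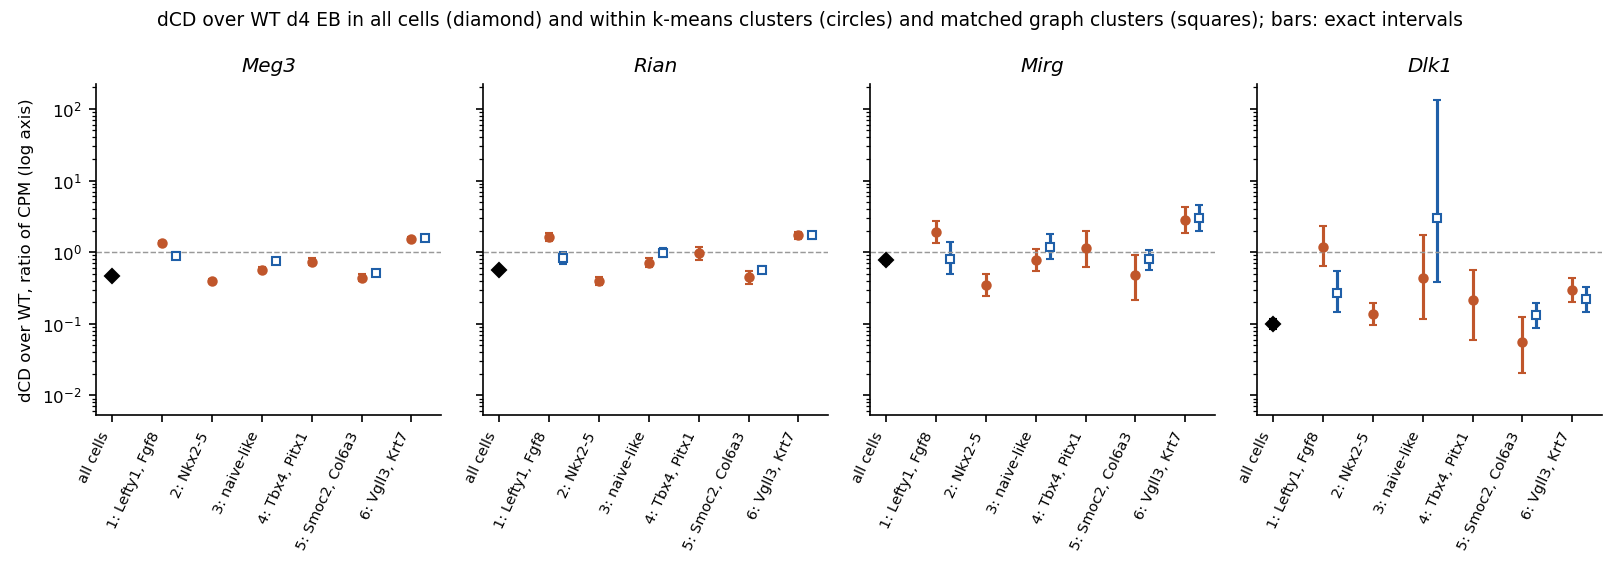
Ratio of CPM in dCD over WT d4 EB (log axis, dashed line at 1) for *Meg3*, *Rian*, *Mirg* and *Dlk1* in all cells (diamond), in 6 k-means clusters (circles) and in the matched graph clusters with at least 20 cells of each library (squares), with exact 95% intervals. In cluster 6 *Meg3* is at 1.54 times and *Dlk1* at 0.300 times WT, and in cluster 1 the *Meg3* ratio of 1.35 is 0.884 in the graph cluster.

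Cells at or above the median depth without *Meg3* were also spread over the R1 clusters. In WT they made up 25.6% of cluster 1, 17.2% of clusters 3 and 6, 7.03% of cluster 5 and 2.48% of cluster 4. In dCD they made up 23.9% of cluster 1, 28.4% of cluster 3, 12.6% of cluster 2 and 12.3% of cluster 6.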

How the data were processed

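The 2 tables of single-cell counts come from 10x v2 libraries of E14Tg2a cells and 10x v3 libraries of R1 cells and were set side by side only. The E14Tg2a UMI counts deposited by the authors came from Cell Ranger on mm10 (GRCm38) and were aggregated to a common depth of mapped reads, which removes counts from deeper libraries, and their 8 stages were assigned by the barcode suffix that the study's supplement gives, because the header of the file was broken. The R1 counts were deposited without such scaling after cells with few genes had been removed by the authors; the counter's version and annotation are not given in the sources used here. All columns were assigned to a sample. Symbols were matched to the E14Tg2a identifiers through GENCODE M21 (27645 of 27998).

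UMIs were summed over the cells of a library and divided by all its UMIs (CPM). Ratios have exact conditional intervals, and genes were called at 2-fold on CPM + 1 with at least 10 UMIs. Genes named were the members, listed genes with the largest differences or at 0, the 5 genes most like *Dlk1* and *Meg3*, and class markers. The members and lists were chosen with earlier results of these data known. The lists hold genes just outside the domain, imprint keepers and setters, thyroid hormone genes and other transcripts of the domain. Cells were clustered without the members by k-means (3 clusters in d2 EB, 4 in d4 EB on 20 principal components, 9 in R1 on 10), and Leiden clusters at resolution 0.3 were the alternative. Scrublet called 0.441% (2i ESC) to 7.61% (d2 EpiLC) of cells as doublets, which stayed in the main results. Listed PGCLC were the 135 barcodes in the authors' supplement. Promoter and miRNA sequences are from RefSeq (GRCm38.p6). Alternatives were leaving doublets out, size factors, equal weights of cells, cells with at least 3000 genes, a pseudocount of 0.1 CPM, leaving out the highest 1% of cells, and other count filters. Intervals, ratios and thinning were tested on simulated data. Python 3.11.15, numpy 2.4.6, scipy 1.17.1, pandas 2.3.3, scikit-learn 1.9.0, scanpy 1.11.5 and matplotlib 3.10.9 were used. Some results that were computed are not reported here.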

Additional observations from a re-analysis of the deposited data

Results flagged for a closer look

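In PGCLC and in the cells around them the maternal transcripts moved in opposite directions between d2 and d4 EB. *Meg3* in d4 EB was at 2.64 times its d2 EB level in the remaining cells and at 0.258 times in listed PGCLC, and *Mirg* was at 2.26 and 0.170 times. The intervals for counting error leave out 1 on each side, and the difference between the classes was not tested.

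Within the R1 clusters the dCD over WT ratios of the maternal transcripts also had opposite directions. *Meg3* was at 1.35 times WT in cluster 1 and 1.54 times in cluster 6, but at 0.399, 0.567, 0.736 and 0.442 times in clusters 2, 3, 4 and 5. *Rian* was at 1.64 and 1.71 times in clusters 1 and 6 and at 0.390, 0.716 and 0.449 times in clusters 2, 3 and 5. *Mirg* was at 1.89 and 2.78 times in clusters 1 and 6 and at 0.350 and 0.473 times in clusters 2 and 5. These differences between clusters were not tested, each rests on 1 library a genotype, and that of cluster 1 turned round with graph clusters. Cluster 1 also held 103 of the 120 cells of a PGC-like graph cluster with 114 WT and 6 dCD cells. Its ratios therefore do not compare cells of the same class. In the graph cluster that matched cluster 3 the *Rian* ratio was 0.979 (0.845 to 1.14). In the one that matched cluster 5 the *Mirg* ratio was 0.792 (0.566 to 1.08). Clusters 2 and 4 had no matched graph cluster with enough cells of both libraries.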

How the results depend on the processing

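No paired analysis was possible because each condition had 1 library. The log2 ratios of members between libraries (32 results) were computed again under 7 alternatives, which gave 197 values; 8 came to lie on the other side of 2-fold and 4 small values of *Dio3* and *Mirg* took the other sign. *Dlk1* in d4 over d2 EB (1.93) was at 1.82 with size factors, 1.71 with cells weighted equally, 1.87 without the highest 1% of cells and 1.36 without the endothelium-like cluster (chosen after seeing the data), and *Meg3* (1.40) at 1.29, 1.14, 1.24 and 0.97. *Meg3* in d2 EB over d2 EpiLC (-0.70) was at -0.54 with cells weighted equally. In dCD over WT, equal weights and leaving out the highest cells gave -1.18 and -1.17 for *Meg3* and -0.88 and -0.89 for *Rian*, and the latter gave -3.65 for *Dlk1*. *Rtl1* in dCD (-0.64) was at -1.36 with a pseudocount of 0.1 CPM. The cause of these shifts was not tested.

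With that pseudocount the number of genes called was 2598 for S+L ESC (1530 in the main setting), 3403 for d2 EpiLC (2135), 1915 for d3 EpiLC (866), 3038 for EpiSC (1953), 2879 for d4 EB (1833) and 3287 for dCD (1625), and with at least 50 UMIs it was 945 in S+L ESC. Size factors ran from 0.842 (2i ESC) to 1.15 times (d4 EB) the library total in the E14Tg2a table and were 0.995 and 1.01 times in the R1 table. With graph clusters the dCD over WT ratios of cluster 1 turned to 0.884 for *Meg3*, 0.837 for *Rian* and 0.803 for *Mirg*, 8 of 16 ratios moved and 5 did not, and 31 of 137 cluster levels moved, against 1 of 137 with doublets left out. Thinning moved 30 of 52 shares of cells. Depth limits *Rtl1* and *Dio3* most: below 0.343 CPM in the shallowest library by total, 2i ESC, a level could not be told from 0.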

Other observations

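The highest single cells of E14Tg2a d4 EB held the members in different combinations. All of the 10 cells with the most *Meg3*, all of the 10 with the most *Dlk1* and 7 of the 10 with the most *Rtl1* were in the endothelium-like cluster. The cell with the most *Meg3* held 888 *Meg3*, 134 *Dlk1*, 7 *Rtl1* and 23 *Mirg* among 67209 UMIs. The cell with the most *Dlk1* held 276 *Dlk1* UMIs and 0 of *Meg3* and *Mirg* among 31843 UMIs, and another of the 10 held 181 *Dlk1* and 1 *Meg3* among 28475. The cell with the most *Rtl1* held 14 *Rtl1*, 85 *Dlk1* and 0 *Meg3* among 23764 UMIs. Cells with many *Dlk1* UMIs were thus found both with and without *Meg3* in this cluster.

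Most globin UMIs sat in few cells. In d4 EB 3 cells with at least 50 globin UMIs held 11882 of 12202 globin UMIs, and 2 of the 3 had no *Meg3* UMI. In WT 2 such cells held 942 of 952 globin UMIs, and neither had a *Meg3* UMI.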
